A study of Mus musculus with 36 samples.

Results

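The genes examined here are 30 listed genes of cholesterol synthesis and of its control by the sterol regulatory element-binding proteins (SREBPs), measured in bulk mouse hippocampus. They were taken by symbol, and a gene was kept where its counts summed to at least 10 over the 36 libraries. That left 28 of the 30 genes, out of 78298 gene identifiers in the table and 35500 identifiers with at least 10 counts. The 28 are 8 genes of the mevalonate steps (Acat2, Hmgcs1, Mvk, Pmvk, Mvd, Idi1, Fdps, Ggps1), 11 of the squalene and sterol steps (Fdft1, Sqle, Lss, Cyp51, Tm7sf2, Lbr, Msmo1, Nsdhl, Hsd17b7, Sc5d, Dhcr7), 4 of SREBP control (Srebf1, Srebf2, Scap, Insig2) and 5 of sterol transport and fatty acid desaturation (Stard4, Abca1, Fads1, Fads2, Scd2). The other two, Insig1 and Ebp, were listed at 0 in all 36 libraries.

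Cells build cholesterol from acetyl-CoA through mevalonate, isoprenoid diphosphates, squalene and a series of sterols. When sterols are scarce in the endoplasmic reticulum, the escort protein Scap carries the SREBPs to the Golgi, where they are cut to release transcription factors that turn on the genes of the pathway and of lipoprotein uptake. Insig proteins hold Scap back when sterols are plentiful, and oxysterols act through liver X receptors to turn on export genes such as Abca1. The brain makes its own cholesterol behind the blood-brain barrier, and oligodendrocytes use much of it for myelin.

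Mice that were wild-type (WT) or carried a knockout (KO) of Fmr1 or Shank3 received vehicle or cannabidiol (CBD), a plant cannabinoid that does not intoxicate. Fmr1 encodes the RNA-binding protein lost in fragile X syndrome, and Shank3 encodes a scaffold of excitatory synapses. The 6 groups were WT vehicle, WT CBD, Fmr1 KO vehicle, Fmr1 KO CBD, Shank3 KO vehicle and Shank3 KO CBD, with 6 libraries each, from 3 males and 3 females. All mice, controls included, were injected subcutaneously for 7 days. Treated males received 5 mg/kg CBD and treated females 50 mg/kg, so sex and dose cannot be told apart among treated mice. The sources used here do not give the strain, the knockout alleles or the age. Titles of all Shank3 KO libraries began with SKO. Those of WT and Fmr1 KO libraries began with FMR, except that of WT CBD replicate 1, which began with CB. What these letters mark is not given, so Shank3 KO cannot be told apart from any difference that goes with them. Each library was taken as 1 animal, and p-values measure only the spread between these libraries.

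Total counts ran from 11655697 to 33228089 per library. Counts were read as covering whole gene bodies, introns included, because the deposited gene length lay within 5% of the gene span for 98.1% of 20177 intron-containing coding genes. Fmr1 averaged 73.9 ± 4.86 CPM (counts scaled to library size; SD, n = 6) in WT vehicle and 41.1 ± 2.89 in Fmr1 KO vehicle libraries, and Shank3 averaged 265 ± 19.5 in WT vehicle and 168 ± 8.75 in Shank3 KO vehicle libraries. Neuron markers, among them Rbfox3, Snap25 and Gad1, were present in every group, at a mean log2 CPM of 9.08 to 9.23. Their level does not show that the tissue was hippocampus alone. Markers of neighbouring tissue varied far more between libraries. Their scores (mean log2 CPM) ran from -0.04 to 6.26 for choroid plexus and from 0.916 to 5.46 for striatum. The striatum score averaged 1.71 ± 0.349 (SD, n = 6) in WT vehicle and 3.09 ± 1.74 in Shank3 KO vehicle libraries. Several genes that brain cells normally use were listed at 0 in every library (among them Olig2, Sox9 and C1qb), so a listed 0 was not read as absence. In bulk tissue fewer cells of a type and less RNA per cell cannot be told apart. WT CBD replicate 1, Fmr1 KO CBD replicate 5 and Shank3 KO CBD replicate 6, all from males, stood apart from their groups in at least 2 of the 28 genes each, all of them above their group, and were picked out by these genes. Below, counts and medians of the comparisons under CBD are given with and without them, the latter only as a description, since leaving out libraries chosen as high in these genes lowers the CBD estimates by construction. Counts were most open to reads of another annotated gene for the 4 genes that share over 30% of their span; the other shared spans were at most 10.8%. The shared part is the whole of Mvd, 44.1% of Lss and 34.6% of Hmgcs1 on the opposite strand, and 89.7% of Fdps on the same strand.

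RefSeq promoters (GRCm38.p6, 250 bases before to 50 bases after a listed start) matched 22 of the 28 genes by symbol, some of them with several promoters. Hmgcs1, which encodes the enzyme that joins acetyl units into HMG-CoA, was the reference gene for the co-variation described below. Its promoter, with those of Cyp51 (lanosterol demethylase), Msmo1 (methylsterol monooxygenase) and Nsdhl (a sterol dehydrogenase), is shown because these 4 genes varied together from library to library. Capitals mark TCACNCCAC, a form of the sterol regulatory element, and CCAAT, the box bound by nuclear factor Y, each on either strand; the reverse of CCAAT reads ATTGG.
Hmgcs1, chr13:119690101-119690400, plus strand: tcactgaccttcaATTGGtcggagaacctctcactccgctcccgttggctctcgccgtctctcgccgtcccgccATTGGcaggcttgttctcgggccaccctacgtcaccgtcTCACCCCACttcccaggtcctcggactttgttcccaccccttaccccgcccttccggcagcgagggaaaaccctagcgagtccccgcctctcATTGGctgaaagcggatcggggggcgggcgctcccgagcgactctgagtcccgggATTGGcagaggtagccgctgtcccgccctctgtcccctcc
Cyp51, chr5:4104648-4104947, minus strand: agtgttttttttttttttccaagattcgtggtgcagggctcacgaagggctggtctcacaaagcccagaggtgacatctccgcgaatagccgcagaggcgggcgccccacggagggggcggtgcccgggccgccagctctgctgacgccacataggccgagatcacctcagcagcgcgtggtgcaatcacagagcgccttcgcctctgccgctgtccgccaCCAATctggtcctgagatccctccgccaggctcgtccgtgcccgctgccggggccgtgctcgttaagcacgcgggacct
Msmo1, chr8:64733529-64733828, minus strand: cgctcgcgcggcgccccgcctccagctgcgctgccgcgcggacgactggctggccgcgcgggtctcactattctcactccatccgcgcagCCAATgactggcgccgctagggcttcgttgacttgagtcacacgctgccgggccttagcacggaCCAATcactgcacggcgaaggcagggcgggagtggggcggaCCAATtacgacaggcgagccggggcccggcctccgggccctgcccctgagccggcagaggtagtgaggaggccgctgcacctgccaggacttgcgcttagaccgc
Nsdhl, chrX:72918271-72918570, plus strand: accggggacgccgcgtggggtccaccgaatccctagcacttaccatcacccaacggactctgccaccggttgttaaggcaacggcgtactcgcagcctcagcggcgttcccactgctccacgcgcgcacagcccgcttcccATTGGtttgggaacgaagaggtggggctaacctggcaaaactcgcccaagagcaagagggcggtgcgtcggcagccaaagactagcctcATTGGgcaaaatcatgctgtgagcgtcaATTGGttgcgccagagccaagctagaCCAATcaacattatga
TCACNCCAC, searched on both strands, was found in 1 of the 22 genes (4.55%), Hmgcs1, where it read TCACCCCAC and began 137 bases before the start, and in 1.44% of the 27025 genes in the promoter table. CCAAT was found in 18 of the 22 genes (81.82%) and in 41.06% of all genes in the table. For both motifs a gene counted where any of its promoters matched. By promoter, CCAAT was found in 19 of 30 (63.33%) for these genes and in 37.41% of all 32851. The motifs did not overlap in their letters. A match describes the letters of this window and says nothing of binding.

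Read per kilobase of counted length, Scd2, a desaturase that makes monounsaturated fatty acids and is abundant in the brain, had the highest level, 64.1 CPM per kb over the 36 libraries. Hmgcs1 followed at 5.53, then Sc5d (sterol desaturase) at 4.21, Ggps1 (geranylgeranyl diphosphate synthase) at 3.65 and Fads2 (a polyunsaturated fatty acid desaturase) at 3.07. Srebf2, which encodes the SREBP that acts mainly on cholesterol genes, lay at 2.89 CPM per kb and Srebf1, whose product acts mainly on fatty acid genes, at 1.68. The lowest levels were those of Lss (lanosterol synthase), 0.283, and Acat2 (acetoacetyl-CoA thiolase), 0.287 CPM per kb. Counted length includes introns, so this order also depends on intron length and is not an order of messenger levels. For Fads2 the counted length was 38982 bases, with 3295 in exons, and for Hmgcs1 17882, with 4594 in exons. The coefficient of variation of CPM within groups ran from 9.75% for Sc5d to 22.6% for Stard4, a carrier of cholesterol between membranes. For Mvd, the mevalonate diphosphate decarboxylase, the highest library was 2.58-fold above the lowest.

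Sqle, which opens the oxygen-dependent part of sterol synthesis, had a lowest, median and highest value of 29.8, 37.7 and 42.6 CPM in WT vehicle and 25.1, 33.0 and 49.3 in WT CBD libraries. It had 27.0, 33.9 and 39.1 in Fmr1 KO vehicle, 28.1, 33.4 and 51.2 in Fmr1 KO CBD, 31.8, 37.6 and 39.0 in Shank3 KO vehicle and 27.5, 29.3 and 50.4 in Shank3 KO CBD libraries. All 6 ranges overlapped, and the highest library of each CBD group lay above that of its vehicle group. For Srebf2 the group medians ran from 159 CPM in Fmr1 KO CBD to 171 in WT vehicle libraries. Scd2 had group medians of 706 (Fmr1 KO CBD) to 865 (Shank3 KO CBD), with single libraries between 638 and 1184. Stard4 had group medians of 12.2 (Fmr1 KO vehicle) to 14.8 (WT vehicle) and single libraries of 8.30 to 19.3 CPM. The ranges of the 6 groups overlapped for each of these genes.

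**Figure D1:**
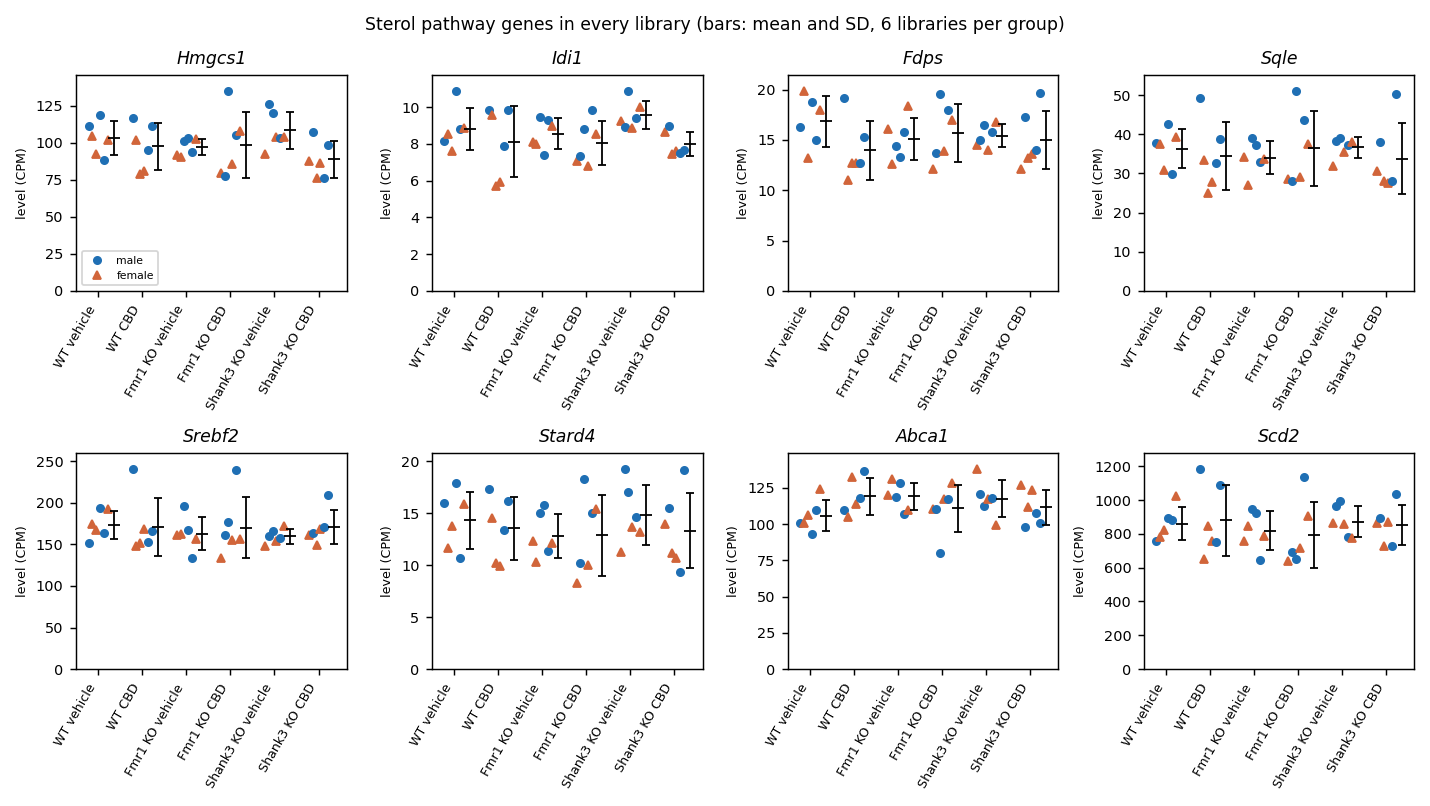
Level in CPM (y axis) of Hmgcs1, Idi1, Fdps, Sqle, Srebf2, Stard4, Abca1 and Scd2 in each of the 36 libraries, by group (x axis), with males and females marked and a bar for the mean and SD of 6 libraries. The groups overlap in every panel, and for Srebf2 1 library of WT CBD lies at 241 CPM, above the other 5 at 148 to 168.

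Under vehicle none of the 28 genes was called between either knockout and WT. In edgeR's quasi-likelihood test 0 of the 28 genes passed an adjusted p of 0.05 for Fmr1 KO against WT, where 0.0283% of all 21172 tested genes passed, and 0 of 28 for Shank3 KO, where 0.0378% passed. DESeq2 and limma voom also called 0 of the 28 in both comparisons, and at an unadjusted p under 0.05 edgeR found 0 of 28 in each, against 2.24% and 5.63% of all genes. In Fmr1 KO 8 of the 28 estimates were above WT and 20 below, where 49.5% of all genes were below, with a median log2 fold change of -0.06. In Shank3 KO 13 were above and 15 below, where 50.1% of all genes were below, with a median of -0.01. Here and below, the signs of the 28 genes are not separate observations, since these genes varied together from library to library.

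Abca1, the membrane pump that exports cholesterol to apolipoproteins, had the smallest p in both knockouts. Its lowest, median and highest CPM were 93.2, 103 and 124 in WT vehicle, 107, 119 and 131 in Fmr1 KO vehicle and 99.2, 117 and 138 in Shank3 KO vehicle libraries. The 3 ranges overlapped. Its log2 fold change was 0.17 (SE 0.0899, unadjusted p = 0.0631, edgeR) in Fmr1 KO and 0.15 (SE 0.0900, unadjusted p = 0.0951) in Shank3 KO. Fdps, which makes farnesyl diphosphate, was next in Fmr1 KO, with 13.2, 17.1 and 19.9 CPM in WT against 12.6, 15.1 and 18.4 and a log2 fold change of -0.16 (SE 0.125, unadjusted p = 0.212), followed by Tm7sf2, a sterol reductase, at -0.15 (SE 0.131, unadjusted p = 0.246). In Shank3 KO, Scap followed Abca1 at -0.12 (SE 0.0978, unadjusted p = 0.243) and Srebf2 at -0.12 (SE 0.108, unadjusted p = 0.274). None of these differences passed the test.

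Under CBD the knockouts again gave 0 of 28 called genes against WT, where 0.0331% of all genes passed for Fmr1 KO and 0.0425% for Shank3 KO. DESeq2 and limma voom called 0 as well, and 0 of 28 had an unadjusted p under 0.05 in edgeR, against 7.4% and 1.65% of all genes. Without the 3 libraries that stood apart these counts were also 0 of 28, with 10.4% and 2.49% of all genes at an unadjusted p under 0.05. The smallest p in Fmr1 KO was that of Acat2 (log2 fold change 0.19, SE 0.128, unadjusted p = 0.138), then Fdps (0.18, SE 0.125, unadjusted p = 0.171) and Srebf1 (-0.16, SE 0.118, unadjusted p = 0.178). In Shank3 KO it was that of Lbr, which combines a sterol reductase with a nuclear envelope anchor (0.16, SE 0.0976, unadjusted p = 0.118), then Mvd (0.23, SE 0.171, unadjusted p = 0.187) and Hmgcs1 (-0.13, SE 0.104, unadjusted p = 0.216). Set against each other under vehicle, Fmr1 KO and Shank3 KO also gave 0 of 28 called genes by edgeR, DESeq2 and limma voom, where 0.00945% of all genes passed, and 0 of 28 with an unadjusted p under 0.05, against 4.98%. Nsdhl had the smallest p there, with a log2 fold change of -0.18 in Fmr1 KO relative to Shank3 KO (SE 0.0931, unadjusted p = 0.0586). This gene lies on the X chromosome, and whether its position relative to Fmr1 plays a part was not tested. A joint test of any difference among the 6 groups called 0 of 28 by all 3 tools, where 0.0661% of all genes passed in edgeR. Its smallest unadjusted p-values were 0.164 for Hmgcs1, 0.173 for Idi1 and 0.186 for Lbr, whereas 3.7% of all genes had one under 0.05.

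CBD was compared with vehicle within each genotype, and 0 of the 28 genes passed in any of them. The share of all genes that passed was 0% in WT, Fmr1 KO and Shank3 KO in edgeR, and DESeq2 and limma voom called 0 of the 28 in each. At an unadjusted p under 0.05 edgeR found 1 of 28 in WT, 0 in Fmr1 KO and 2 in Shank3 KO, where 2.68%, 2.64% and 4.41% of all genes had one. In WT 22 of 28 estimates were below 0, against 47.4% of all genes, and the median log2 fold change was -0.04. In Fmr1 KO 11 were below 0, against 48.3%, with a median of 0.01, and in Shank3 KO 18 were below 0, against 50%, with a median of -0.05. By step, 7 of 8 mevalonate and 10 of 11 sterol estimates were below 0 in WT, 5 of 8 and 9 of 11 in Shank3 KO, and 3 of 8 and 5 of 11 in Fmr1 KO. Of the 4 SREBP control genes, 2 were below 0 in WT and 1 each in Fmr1 KO and Shank3 KO. Without the 3 libraries that stood apart, the medians were -0.14 in WT, -0.05 in Fmr1 KO and -0.10 in Shank3 KO, and 0 were called. An unadjusted p under 0.05 was then found for 4, 1 and 5 of 28 genes, against 9.98%, 4.45% and 5.17% of all genes. The 3 comparisons rest on separate animals.

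The 2 genes in Shank3 KO both belong to the mevalonate steps. Hmgcs1 had a lowest, median and highest value of 92.7, 104 and 126 CPM in Shank3 KO vehicle and 76.5, 86.9 and 108 in Shank3 KO CBD libraries. Idi1, which interconverts the isoprenoid building blocks, had 8.86, 9.34 and 10.9 CPM under vehicle and 7.44, 7.66 and 8.97 under CBD. The ranges of both genes overlapped, for Idi1 narrowly. The log2 fold change was -0.29 for Hmgcs1 (SE 0.104, 95% interval -0.50 to -0.07, unadjusted p = 0.00959, adjusted p = 0.963, edgeR) and -0.26 for Idi1 (SE 0.113, -0.49 to -0.03, unadjusted p = 0.0257, adjusted p = 0.963). Acat2, the first enzyme of the route, followed at -0.21 (SE 0.128, unadjusted p = 0.110). The score of dentate granule neuron markers (mean log2 CPM) moved in the other direction in the same groups, from 5.28 ± 0.180 (SD, n = 6; 4.97 to 5.51) under vehicle to 5.76 ± 0.390 (5.15 to 6.27) under CBD. With that score as a covariate, added after seeing the data, Hmgcs1 stood at -0.17 (unadjusted p = 0.0604, edgeR) and Idi1 at -0.21 (unadjusted p = 0.0808). In that fit 0 of 28 genes had an unadjusted p under 0.05, against 4.98% of all genes. The cause of these differences was not tested.

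In WT the 1 gene was Fdps, with 13.2, 17.1 and 19.9 CPM under vehicle and 11.04, 12.7 and 19.2 under CBD. The ranges overlapped, although 4 of the 6 CBD libraries lay below the lowest vehicle library, and the highest CBD library was WT CBD replicate 1, which stood apart. Its log2 fold change was -0.28 (SE 0.125, 95% interval -0.54 to -0.03, unadjusted p = 0.0305, adjusted p = 1, edgeR). Abca1 followed at 0.18 (SE 0.0899, unadjusted p = 0.0575), from 93.2, 103 and 124 CPM to 105, 116 and 137. In Fmr1 KO, Lbr had the smallest p (-0.17, SE 0.0977, unadjusted p = 0.0883), then Abca1 (-0.11, SE 0.0899, unadjusted p = 0.239) and Mvk, mevalonate kinase (-0.14, SE 0.125, unadjusted p = 0.271). Markers of myelin and oligodendrocytes were lowest in the same group, at a score of 5.63 ± 0.812 (SD, n = 6) in Fmr1 KO CBD libraries against group means of 6.16 to 6.47 elsewhere. That mean leans on Fmr1 KO CBD replicate 3, which had the lowest score, 4.07, and the lowest Lbr level, 14.3 CPM. The same library lay farthest from its group mean in the dentate granule score (-1.81) and in Hmgcs1 (0.486 on the log2 scale). With the myelin score as a covariate, Lbr stood at -0.04 and Abca1 at 0.01. The cause of their differences was not tested.

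**Figure D2:**
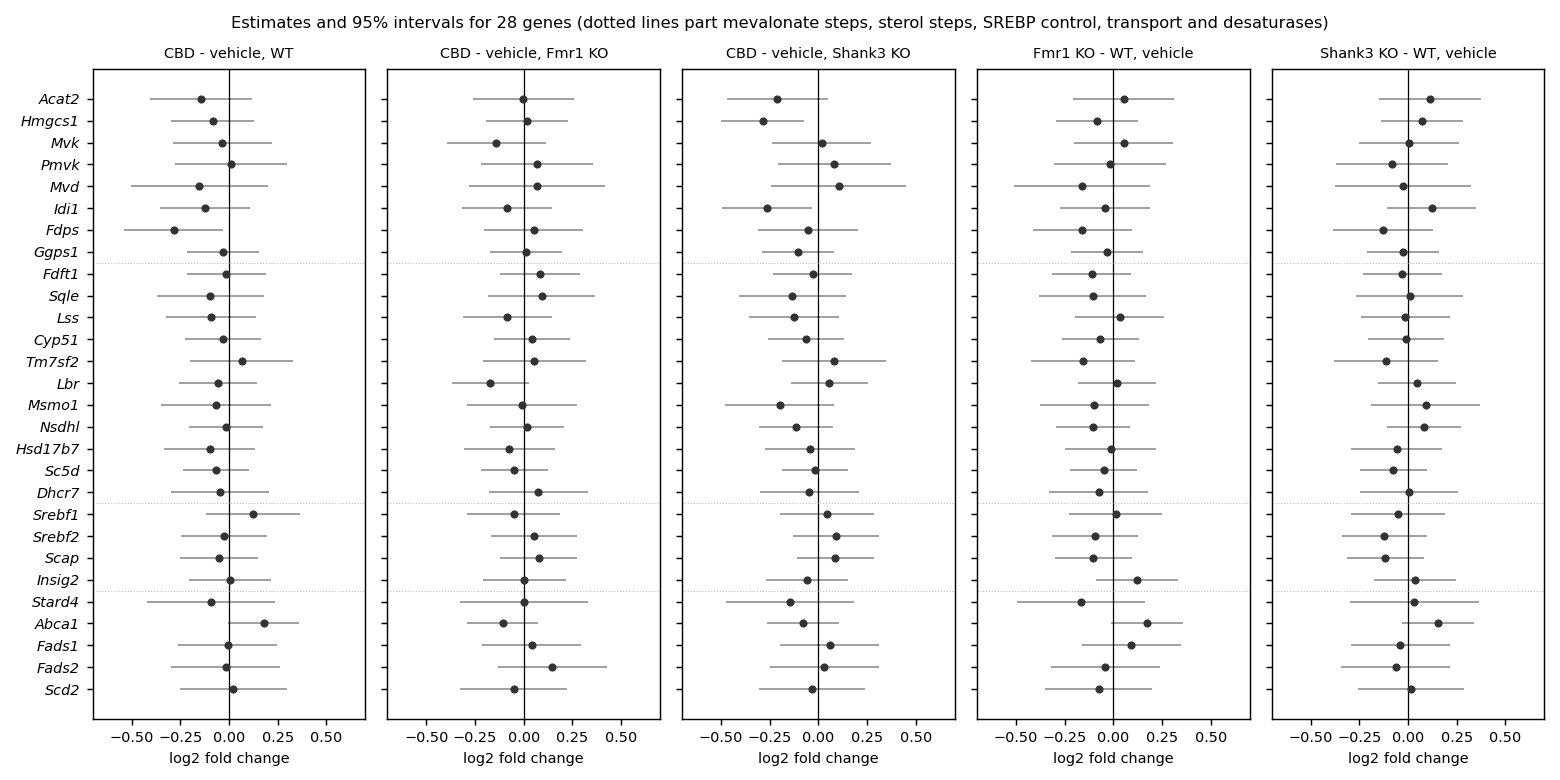
Log2 fold change (x axis) with its 95% interval for the 28 genes (y axis, by step of the pathway), for CBD against vehicle in each genotype and each knockout against WT under vehicle. Nearly all intervals cross 0; those of Fdps in WT and of Hmgcs1 and Idi1 in Shank3 KO do not, and 0 of 28 genes were called.

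Whether CBD acted differently in a knockout than in WT was tested as an interaction. Both interactions gave 0 of 28 called genes by edgeR, DESeq2 and limma voom, where 0% of all genes passed in edgeR. At an unadjusted p under 0.05 there was 1 of 28 for Fmr1 KO and 0 of 28 for Shank3 KO, against 3% and 4.74% of all genes. The 1 gene was Abca1, whose CBD effect was lower in Fmr1 KO than in WT by a log2 difference of -0.28 (SE 0.127, unadjusted p = 0.0320, adjusted p = 0.993), followed by Fdps at 0.33 (SE 0.177, unadjusted p = 0.0676) and Srebf1 at -0.17 (unadjusted p = 0.303). Abca1 followed the myelin score across libraries, and that score averaged 6.28 and 6.44 in WT but 6.16 and 5.63 in Fmr1 KO under vehicle and CBD. With that score as a covariate the Abca1 difference was -0.12, and without Fmr1 KO CBD replicate 3, whose Abca1 level of 80.4 CPM was the lowest of its group, it was -0.21. The score comes from the same libraries, and the cause of the Abca1 difference was not tested. In Shank3 KO Abca1 and Fdps stood at -0.26 (SE 0.127, unadjusted p = 0.0522) and 0.23 (SE 0.177, unadjusted p = 0.202), with Hmgcs1 at -0.20 (SE 0.147, unadjusted p = 0.179). Without the 3 libraries that stood apart, 2 and 1 of 28 genes had an unadjusted p under 0.05, against 5.5% and 8.36% of all genes. Both interactions use the same WT libraries, so they are not separate evidence on these genes.

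Averaged over the 3 genotypes, the CBD effect again gave 0 of 28 called genes by edgeR, DESeq2 and limma voom, where 0.0189% of all genes passed in edgeR, and 1 of 28 with an unadjusted p under 0.05, against 3.16%. Of the 28 estimates 19 were below 0, against 45.7% of all genes. The 1 gene was Idi1, at -0.16 (SE 0.0651, unadjusted p = 0.0214), followed by Hmgcs1 at -0.12 (SE 0.0602, unadjusted p = 0.0577) and Acat2 at -0.12 (SE 0.0738, unadjusted p = 0.118). The 95% intervals of the 28 averaged effects ran from -0.29 (Idi1) to 0.22 (Pmvk, phosphomevalonate kinase), which is 0.818-fold to 1.16-fold, reaching a median of 0.137 to either side of the estimate. All 28 lay within 0.5 of 0 on the log2 scale. Within a single genotype the intervals of 26 genes in WT, 28 in Fmr1 KO and 28 in Shank3 KO did so. A miss of the threshold does not show that these levels were equal. Without the 3 libraries that stood apart, an alternative chosen after seeing the data, the median was -0.09 and 0 of 28 were called. An unadjusted p under 0.05 was then found for 8 of 28, against 6.95% of all genes.

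The sexes, and with them the doses, gave estimates of opposite sign for many of these genes in the main fit. In males (5 mg/kg) 19 of 28 averaged effects were above 0, against 52.2% of all genes, with a median log2 fold change of 0.06. In females (50 mg/kg) 26 of 28 were below 0, against 50.4%, with a median of -0.12. By edgeR, DESeq2 and limma voom 0 of 28 were called in males, where 0% of all genes passed in edgeR, and 0 of 28 in females, where 0.0142% passed. An unadjusted p under 0.05 was found for 2 of 28 in males, both higher, against 6.97% of all genes (4.61% higher). It was found for 6 of 28 in females (21.4%), all lower, against 3.07% of all genes (1.28% lower). Of the female estimates, 7 of 8 for the mevalonate steps, 11 of 11 for the squalene and sterol steps and 4 of 4 for SREBP control were below 0, with medians of -0.20 for the mevalonate and -0.12 for the sterol steps. The 28 genes varied together between libraries (median Pearson's r over pairs 0.472). A shift shared by a few libraries can therefore turn many signs at once, and these counts do not add up as separate evidence.

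The difference between the sexes in the CBD effect was itself tested, and 0 of 28 genes were called by edgeR, DESeq2 and limma voom, where 0% of all genes passed in edgeR. The estimate, female effect minus male effect, was below 0 for 24 of 28 genes, against 50.7% of all genes, with a median of -0.17. An unadjusted p under 0.05 was found for 7 of 28, all below 0, against 7.4% of all genes (4.9% below 0). Mvd had a lowest, median and highest value of 2.20, 3.005 and 3.80 CPM in 9 vehicle males, 2.57, 3.35 and 4.61 in 9 CBD males, 2.37, 3.06 and 3.88 in 9 vehicle females and 1.79, 2.35 and 3.53 in 9 CBD females. Its ranges overlapped, with the median lowest in CBD females. By genotype, the mean of 3 females went from 3.37 CPM under vehicle to 2.23 under CBD in WT and from 3.03 to 2.30 in Fmr1 KO, but from 2.80 to 3.19 in Shank3 KO. Its difference was -0.54 on the log2 scale (SE 0.164, unadjusted p = 0.00259, adjusted p = 0.659, edgeR). For Dhcr7, which makes cholesterol in the last step of one branch, the corresponding medians were 23.04, 23.9, 22.1 and 19.3 CPM and the difference was -0.37 (SE 0.133, unadjusted p = 0.00965). Fdps had medians of 15.8, 17.3, 16.1 and 12.7 CPM and a difference of -0.36 (SE 0.139, unadjusted p = 0.0140). The other four were Fads2 (-0.38, unadjusted p = 0.0183), Mvk (-0.31, unadjusted p = 0.0397), Hsd17b7, a sterol ketone reductase (-0.28, unadjusted p = 0.0375), and Srebf2 (-0.27, unadjusted p = 0.0403).

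The 3 libraries that stood apart were all CBD males and were picked as high in these genes, so a smaller difference without them follows from the choice. Without them the median of the difference was -0.08 with 20 of 28 below 0. An unadjusted p under 0.05 was found for 1 of 28 genes (3.57%), against 2.35% of all genes. That 1 gene was Mvd, at -0.40 (unadjusted p = 0.0209). The male effects then had 21 of 28 estimates below 0 and a median of -0.05. The female effects, whose libraries were all retained, had 26 of 28 below 0, 8 of 28 at an unadjusted p under 0.05, against 4.33% of all genes, and a median of -0.11. The same 3 libraries had the steepest slope of gene levels on transcript GC content, at 0.269, 0.247 and 0.193 log2 units per 10 percentage points of GC against at most 0.146 in the other 33. The slope averaged 0.075 in CBD males, -0.048 in vehicle males, -0.032 in CBD females and 0.004 in vehicle females. With that slope as a covariate, also added after seeing the data, 1 of 28 genes (3.57%) had an unadjusted p under 0.05 for the difference, against 2.45% of all genes. The median difference was -0.07. In females the count was 6 of 28 (21.4%), against 3.14%, with a median of -0.07. In males it was 0 of 28, against 5.5%, with a median of -0.03 and 20 of 28 estimates below 0. The cause of the sex difference was not tested. In every one of these fits 0 of 28 were called.

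**Figure D3:**
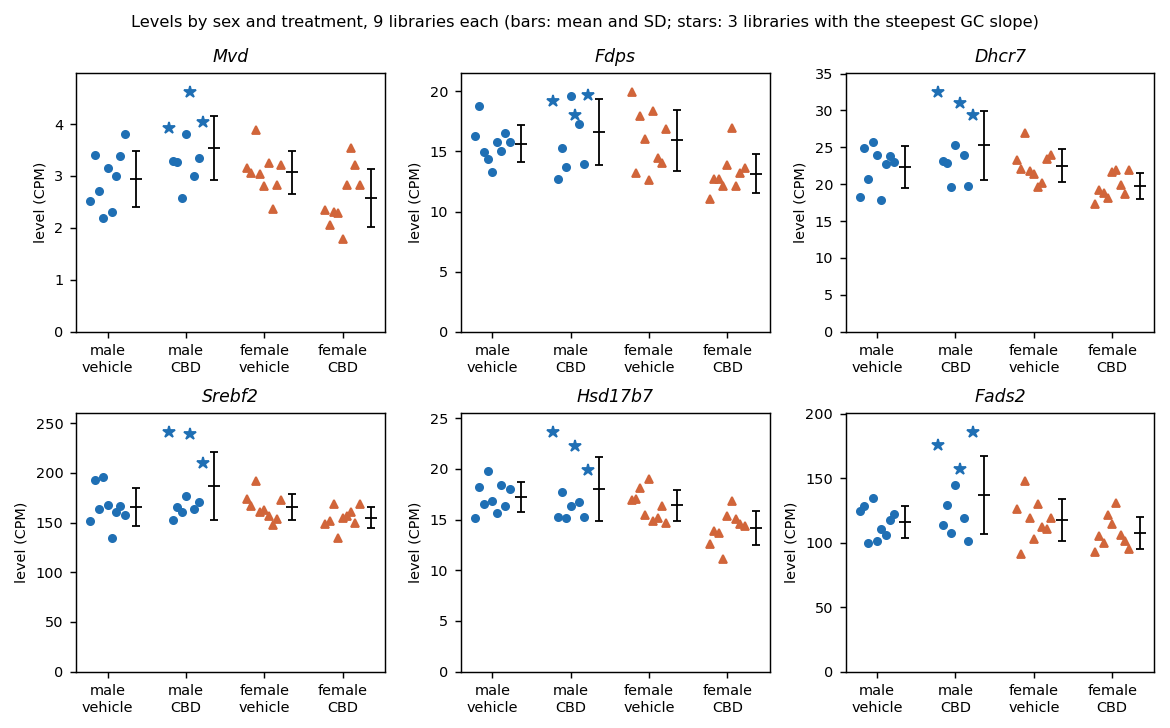
Level in CPM (y axis) of Mvd, Fdps, Dhcr7, Srebf2, Hsd17b7 and Fads2 in males and females under vehicle and CBD (x axis), 9 libraries each over the 3 genotypes, with a bar for the mean and SD; stars mark the 3 libraries that stood apart. CBD females have the lowest median of the 4 sets for Mvd, Dhcr7 and Fdps, and the sets overlap.

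Under vehicle, females and males differed in 0 of 28 genes by edgeR, DESeq2 and limma voom, where 0.0331% of all genes passed in edgeR. The smallest unadjusted p was that of Cyp51, lower in females by a log2 difference of -0.20 (SE 0.0842, unadjusted p = 0.0275), and it was the 1 gene of 28 under 0.05, against 2.74% of all genes. Stard4 followed at -0.27 (SE 0.141, unadjusted p = 0.0679) and Hmgcs1 at -0.13 (SE 0.0900, unadjusted p = 0.170).

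Although no group was called apart, many of these genes moved together from animal to animal. Pearson's r was computed on each library's deviation from its group mean, in log2 CPM, over 36 libraries. Over the 378 pairs of the 28 genes the median r was 0.472, and 175 pairs (46.3%) lay above 0.5. That share was not computed over all tested genes. The mean r over pairs was 0.38 for the 28 genes and 0.002 over all tested genes. Pairs ran from -0.587 (Pmvk with Scap) to 0.908. A set of 7 genes, Hmgcs1, Fdft1 (squalene synthase), Sqle (squalene epoxidase), Cyp51, Msmo1, Nsdhl and Stard4, singled out after the values were seen, held pairs of 0.732 to 0.908. The genes of a pair share the library, its depth and its dissection, and these values are descriptions.

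**Figure D4:**
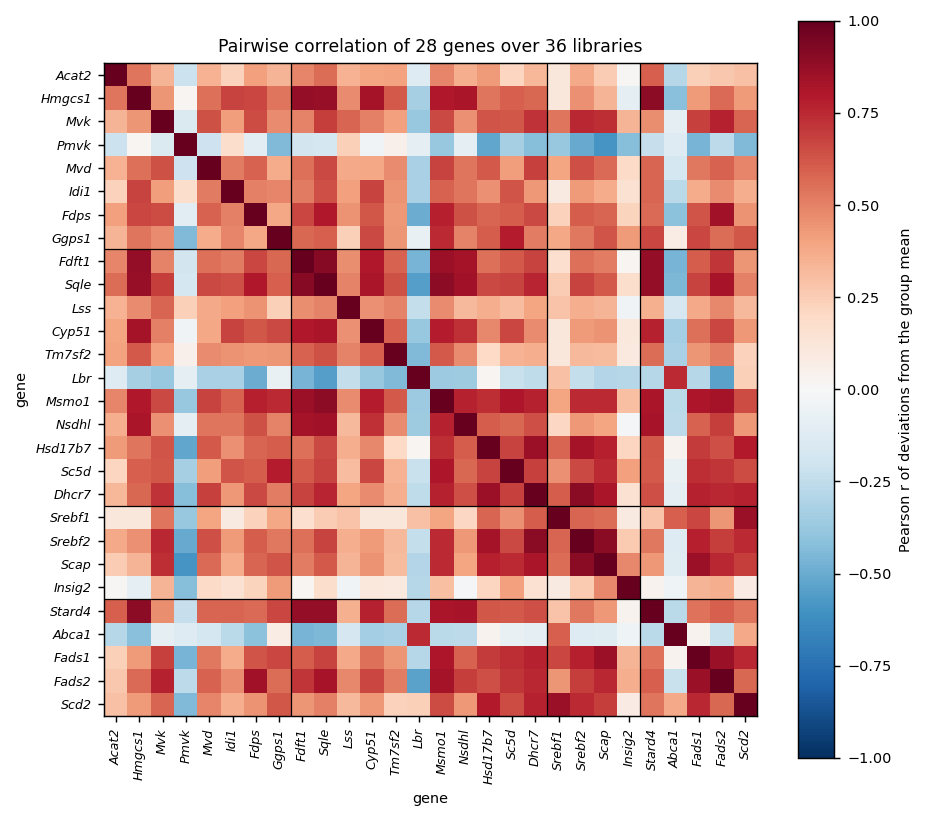
Pearson's r (colour, from -1 to 1) between each pair of the 28 genes (both axes) over 36 libraries, on deviations from the group mean in log2 CPM, with lines between the 4 roles. Most pairs are positive, whereas Pmvk, Lbr and Abca1 are negative with many of the others.

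With Hmgcs1 as reference, 27 relations were tested by permuting libraries within groups, with 100000 permutations and Benjamini-Hochberg adjustment. Of the 27 genes, 21 were higher in libraries where Hmgcs1 was higher, 1 was lower and 5 did not pass (Pmvk, Lbr, Srebf1, Scap and Insig2). The share of all tested genes that would pass this permutation test was not computed. The number that passed, 22, was 13 on deviations from the mean of group and sex and 16 without the 3 libraries that stood apart. Stard4 had r = 0.897 and rho = 0.909, with r = 0.894 after leaving out the 2 libraries farthest out in Hmgcs1, 0.903 within males and 0.803 within females. Fdft1 had r = 0.882 (rho = 0.894; 0.855 without those 2; 0.899 and 0.719 within males and females). Sqle had r = 0.871 (rho = 0.892; 0.853; 0.845 and 0.801). Cyp51, Nsdhl and Msmo1 followed at r = 0.829, 0.814 and 0.799. Each of these 6 had a permutation p of 1e-05 for r, the smallest that these permutations can give (adjusted p = 4.5e-05). An r over 0.8 with Hmgcs1 was reached by 5 of the 27 genes (18.5%). Among all 21171 tested genes other than Hmgcs1, these 5 included, it was reached by 21 (0.0992%). An r over 0.5 was reached by 16 of the 27 genes (59.3%) and by 6.2% of those 21171.

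The gene that was lower was Abca1, with r = -0.418 (rho = -0.342, permutation p adjusted to 0.0488). The relation was -0.187 without the 2 farthest libraries, so it rests on them. Among the SREBP control genes, Srebf2 was nearest to Scap (r = 0.8997), Dhcr7 (0.8989) and Hsd17b7 (0.830), and had r = 0.458 with Hmgcs1. Srebf1 was nearest, among the 28 genes, to Scd2 (r = 0.860), and had r = 0.584 with Srebf2. Its level followed the scores of oligodendrocyte precursor markers (r = 0.729, rho = 0.753, adjusted permutation p = 0.00014 over 14 relations), astrocyte markers (r = 0.648, rho = 0.581, 0.00056) and myelin markers (r = 0.582, rho = 0.604, 0.00383). Lbr (r = 0.8003, rho = 0.782) and Abca1 (r = 0.798, rho = 0.738) had the closest relation to the myelin score among the 28 genes, each with an adjusted permutation p of 0.00028 over 28 relations and with r = 0.752 and 0.708 without the 2 farthest libraries.

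Of 13 marker scores and the total count, 1 passed against Hmgcs1, the score of dentate granule neuron markers. Hmgcs1 was lower in libraries with a higher dentate granule neuron score, with r = -0.695 (rho = -0.682, adjusted permutation p = 0.00112 over 14 marker relations, -0.589 without the 2 farthest libraries, -0.697 in males and -0.587 in females). Of the 28 genes 8 passed with a negative r to that score, among them Fdft1 (-0.648), Stard4 (-0.639) and Sqle (-0.634), and Lbr passed with a positive one (0.467). With the dentate score removed from each gene, 19 of 27 genes passed with a positive r to Hmgcs1 and 0 with a negative one. Lss, Mvd, Mvk and Acat2 were among the genes that no longer passed and Srebf1 and Scap were added, with r = 0.819 for Stard4 and 0.773 for Sqle. The GC slope passed with a positive r for 15 of 28 genes, led by Scap (0.824) and Srebf2 (0.801), and did not pass for Hmgcs1 (0.128) or Stard4 (0.175). How many of all tested genes would pass with the dentate score or the GC slope was not computed. With the GC and length slopes of the library removed, 18 of 27 genes passed with a positive r to Hmgcs1 and 1, Insig2, with a negative one. Shares of all tested genes that would pass after these removals were not computed.

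**Figure D5:**
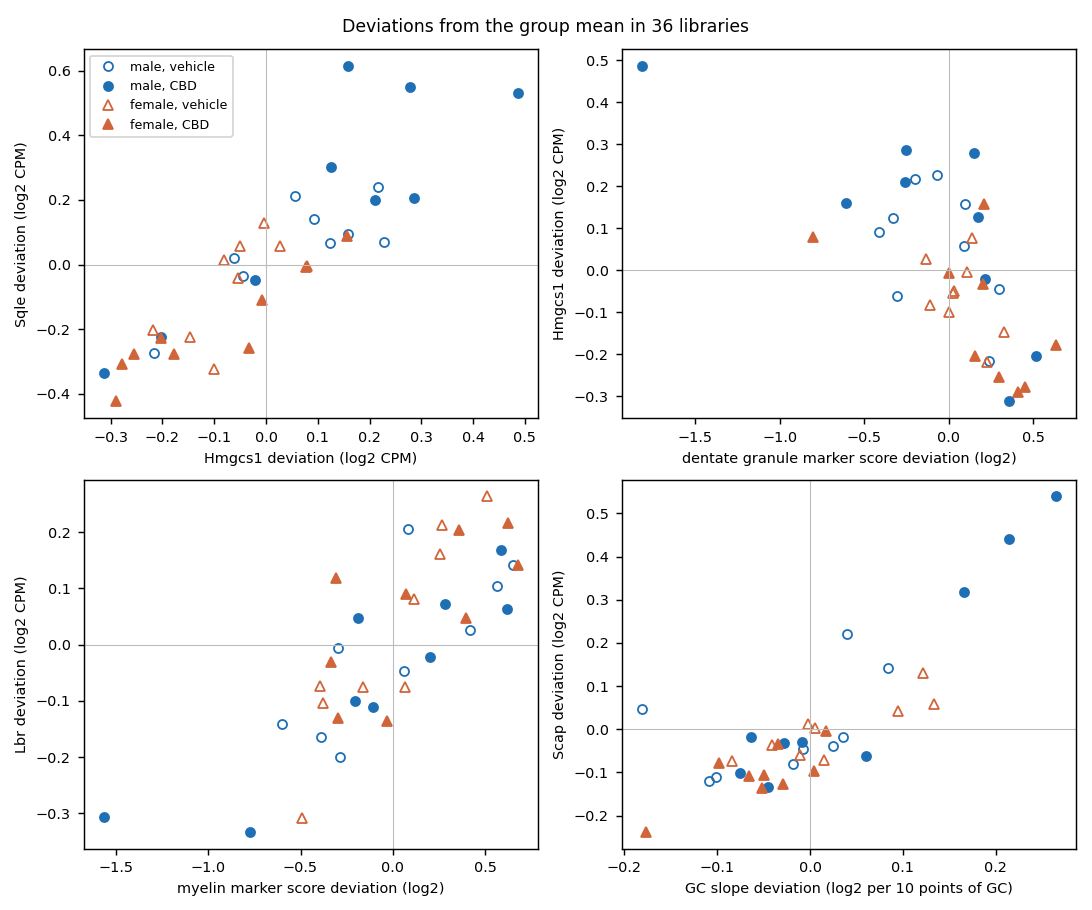
Deviations of the 36 libraries from their group means, by sex and treatment: Sqle against Hmgcs1 and Hmgcs1 against the dentate granule score, then Lbr against the myelin score and Scap against the GC slope (log2 units; GC slope per 10 points of GC). Sqle rises with Hmgcs1 at r = 0.871, Hmgcs1 runs against the dentate score at -0.695, and Lbr and Scap rise with the myelin score (0.8003) and the GC slope (0.824).

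The rest of the pathway was taken from lists of cholesterol synthesis and uptake genes (21 of 23 tested), fatty acid synthesis genes (18 of 18), liver X receptor targets and export genes (11 of 12) and brain sterol turnover genes (7 of 10), with 1 gene in 2 of the lists. By edgeR, 0 of these genes were called in any comparison. Of 56 relations with Hmgcs1, 8 passed with a positive and 3 with a negative r. How many of all tested genes would pass was not computed. Among the 21171 tested genes other than Hmgcs1, 6.2% had an r over 0.5 with it. Cyp46a1, which hydroxylates cholesterol in neurons for export from the brain, had r = 0.758 (rho = 0.734, 0.683 without the 2 farthest libraries, 0.821 in males, 0.342 in females). Acly, which makes cytosolic acetyl-CoA, had r = 0.686 (rho = 0.724, 0.719 without those 2). Cyp7b1, an oxysterol hydroxylase, had r = -0.850 (rho = -0.825, -0.803 without those 2, -0.860 in males, -0.724 in females); its adjusted permutation p of 9.33e-05 is that of the smallest p these permutations can give. Nr1h3, which encodes a liver X receptor, had r = -0.634. The dentate score, which Hmgcs1 ran against, was not removed from these 56 relations, and their dependence on it was not tested.

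The genes of these lists with the smallest p in the joint test included Lrp8, Pnpla3, Elovl7 and Cyp39a1. Lrp8, a receptor for apolipoprotein E and reelin, had a lowest, median and highest value of 94.5, 104 and 110 CPM in WT vehicle and 83.7, 90.8 and 95.5 in Fmr1 KO vehicle libraries. The ranges overlapped narrowly, and the log2 fold change was -0.20 (SE 0.0576, unadjusted p = 0.00138, adjusted p = 1, edgeR). Pnpla3, a lipid droplet enzyme driven by SREBP-1, had 2.93, 3.27 and 4.23 CPM in WT vehicle and 1.502, 2.56 and 2.75 in Shank3 KO vehicle libraries. These ranges did not overlap, and the log2 fold change was -0.52 (SE 0.159, unadjusted p = 0.00263, adjusted p = 0.853). The Pnpla3 mean was also lower in Shank3 KO CBD (2.55 CPM) than in WT CBD libraries (3.38), with overlapping ranges. Whether Pnpla3 lies in a segment that goes with the Shank3 knockout was not tested. Cyp39a1, an oxysterol hydroxylase, had 2.05, 2.32 and 3.70 CPM in WT CBD and 1.079, 1.64 and 1.90 in Fmr1 KO CBD libraries, again without overlap (-0.73, SE 0.229, unadjusted p = 0.00322, adjusted p = 0.654). Elovl7, a fatty acid elongase, had 22.4, 40.2 and 59.3 CPM in WT CBD against 9.03, 21.2 and 30.2 in Fmr1 KO CBD libraries (-0.96, SE 0.311, unadjusted p = 0.00456, adjusted p = 0.654), the group with the lowest myelin score; its relation to that score was not tested. None of these passed the threshold over all tested genes.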

How the data were processed

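Bulk hippocampal RNA of 36 libraries was analysed from a table of gene counts that the authors deposited without normalizing it. Per the submitters' processing notes, FastQC, STAR 2.7.11b, featureCounts 2.0.8 and build GRCm39 were used; the sources used here do not give the annotation release or the strand setting. Groups came from the library names, and sex from the sample sheet deposited with the counts. Symbols, chromosomes, overlaps and GC content came from a GRCm38 annotation, and no coordinate was converted.

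The main tests were those of edgeR 4.0.16 in R 4.3.3. After filterByExpr, 21172 genes with 99.9% of counts remained, scaled by TMM. The quasi-likelihood model had a coefficient per genotype and treatment group and a sex term; a second had a coefficient per group and sex. Called means a Benjamini-Hochberg adjusted p under 0.05 over all tested genes. SE came from the information matrix times the moderated variance, and log2 CPM used a prior count of 1. Tests were two-sided. Total counts of 11655697 to 33228089 set the counting precision; Mvd, the least counted, had 34 to 123 counts per library. Fits were tested on simulated counts. The genes, lists and comparisons were chosen with earlier results of these data known. The rule for named genes took the 3 members of smallest p in each comparison and, in the other lists, the 2 genes of smallest p in the joint test; other names were chosen after values were seen. Nfyb, Lpcat3, Pltp and Lipa, also taken by that rule, had joint unadjusted p of 0.0386, 0.191, 0.196 and 0.138 (edgeR). In no comparison did more than 3 of the 6 same-numbered pairs correlate over 0.1 (range -0.306 to 0.342), so numbers were not used to pair them.

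Alternatives were DESeq2 size factors, no filter, at least 10 counts in 30 libraries, a Wald test in DESeq2 1.42.0, limma 3.58.1 voom with quality weights, no sex term, a replicate block, 1 surrogate variable (sva 3.50.0), the compared groups alone, marker score covariates, other centring of the correlations, another motif, and each library left out in turn. The GC slope covariate, the dentate score covariate, removal of these scores from the correlations and leaving out 3 libraries were added after seeing the data. Results for some genes of these lists are not reported here.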

Additional observations from a re-analysis of the deposited data

Results flagged for a closer look

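Within a group of 6, a library was singled out where its gap to the nearest other library exceeded Dixon's 95% limit for the group's range. Of 168 combinations of gene and group, 12 met this, and chance alone gives about 1 in 20. WT CBD replicate 1 was high for Msmo1 (65.3 CPM), Sc5d (68.7 CPM), Srebf2 (241 CPM) and Scap (84.6 CPM). Shank3 KO CBD replicate 6 was high for Srebf2 (210 CPM), Scap (74.4 CPM) and Fads2 (185 CPM), and Fmr1 KO CBD replicate 5 for Scap (81.0 CPM) and Fads1 (49.8 CPM). These 9 lie in the 3 male CBD libraries with the steepest GC slope. Dhcr7 was low, at 20.2 CPM, in Shank3 KO vehicle replicate 1. Srebf1 was high, at 48.8 CPM, in WT vehicle replicate 6. Abca1 was low, at 80.4 CPM, in Fmr1 KO CBD replicate 3, the library with the lowest myelin score.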

How the results depend on the processing

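The count of called genes among the 28 was 0 in each comparison under every alternative fitted, the replicate block included, where the median log2 fold change was -0.04 for CBD in WT and -0.05 in Shank3 KO. It moved the median for females against males under vehicle from -0.01 to -0.11, changed no call, and its numbers are not shown to pair the animals. Signs turned for named genes far from the threshold. With a myelin covariate, Srebf1 in Fmr1 KO against WT under CBD stood at 0.0189 and Abca1 for CBD in Fmr1 KO at 0.0138; with myelin, choroid plexus and striatum scores they stood at 0.0191 and 0.02. With the GC slope, Scap and Srebf2 in Shank3 KO against WT under vehicle stood at 0.00990 and 0.0169. For CBD in males, Srebf2 stood at -0.0214 with the GC slope and -0.00641 without the 3 libraries. The cause was not tested. On deviations from the mean of group and sex, 13 genes in place of 22 correlated with Hmgcs1; leaving out 1 library gave 17 to 22. Leaving out 1 library gave 3 to 5 genes correlated with the myelin score, 5 of them without Fmr1 KO CBD replicate 3. Over all settings the members' median for the sex difference in the CBD effect ran from -0.22 to -0.07, and that for CBD in males from -0.05 to 0.10. A longer form of the sterol element, with a further base before it and the ambiguous base fixed, was in 0 of 22 genes, against 0.1% of all genes. Depth limits the least counted genes, Mvd, Acat2, Tm7sf2 and Lss.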
